A study of Mus musculus with 16 samples.

Results

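The genes of sphingomyelin synthesis and of sphingosine 1-phosphate (S1P) were followed over all 16 arrays of the series. They are the sphingomyelin synthases Sgms1 and Sgms2, the sphingosine kinases Sphk1 and Sphk2, the S1P lyase Sgpl1, the S1P phosphatase Sgpp1 and the S1P receptors S1pr1, S1pr2, S1pr3 and S1pr5. Every probe set that the array annotation assigned to 1 of these symbols was taken, which gave 22 probe sets of 10 genes, out of 45037 probe sets and 18193 genes, and each of the 22 named its gene alone. The genes were chosen by the intensities of S1pr3 and Sgms2, known to be high in stem cells with active Notch1, and completed by symbol. The stem cell values with OHT are therefore given below as a description and without a test. The OHT and CHX tests in NERT mesodermal cells used other arrays, but were also chosen with earlier results of these data known. Their p-values for S1pr3 and Sgms2 are therefore not those of genes picked without regard to the data.

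The study asked which genes respond to active Notch1 in EB5 mouse embryonic stem cells (ESC) and in mesodermal cells derived from them. EB5 NERT cells carry the intracellular domain of murine Notch1 fused to a hormone-binding domain of the estrogen receptor, expressed from the pCAG vector, and the fusion protein enters the nucleus once 4-hydroxytamoxifen (OHT) is added. EB5 control cells carry the same vector without the insert. OHT was given at 1 µM for 4 h, and cycloheximide (CHX), which blocks protein synthesis, at 50 µg/ml for 4 h. EB5 NERT cells in ectodermal medium without serum (ESCe) gave 1 array with OHT and 1 without, and so did EB5 NERT cells in mesodermal medium with serum (ESCm), EB5 control cells in ESCm medium and EB5 control mesodermal cells. EB5 NERT mesodermal cells gave 2 arrays each with OHT, without OHT, with CHX and OHT, and with CHX without OHT. Mesodermal cells had been differentiated on collagen IV and were labelled day 4. All cells descend from the single line EB5, and an effect of the NERT protein before induction cannot be told apart from a difference between the NERT and control lines.

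Ceramide is the centre of sphingolipid metabolism. Sphingomyelin synthases move a phosphocholine group from phosphatidylcholine onto ceramide, Sgms1 mainly in the Golgi and Sgms2 mainly at the plasma membrane. Ceramidases release sphingosine from ceramide, sphingosine kinases phosphorylate it to S1P, and S1P is either dephosphorylated by phosphatases such as Sgpp1 or split for good by the lyase Sgpl1. Exported S1P acts on G protein-coupled receptors. S1pr1 couples to Gi proteins and guides endothelial and lymphoid cells, S1pr2 acts strongly through G12 and G13, and S1pr3 couples to Gi, Gq and G12/13 proteins. Mouse and zebrafish embryos need S1P signalling to form blood vessels and the heart.

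S1pr3 lies on chromosome 13 from 51408618 to 51422797, and Sgms2 on chromosome 3 from 131318985 to 131491443 (GRCm38). They are the genes the results turn on, so their promoter windows were read from RefSeq (GRCm38.p6). A window holds 250 bases before and 50 bases after an annotated transcript start, on the strand of the gene. The core of the motif bound by RBP-J, the DNA-binding partner of active Notch, TGGGAA, was searched on both strands (TTCCCA on the other strand). It was in 25.6% of all 32851 promoter windows of the table. Of the 22 windows listed for 9 of the genes, 5 held it: the only window of S1pr3, 2 of 6 windows of Sgms2, 1 of 5 windows of Sphk1 and the only window of S1pr5. The windows of S1pr3 and Sgms2 with the motif are shown because these genes rose with OHT, with the motif in capitals.
S1pr3, chr13:51408368-51408667, plus strand: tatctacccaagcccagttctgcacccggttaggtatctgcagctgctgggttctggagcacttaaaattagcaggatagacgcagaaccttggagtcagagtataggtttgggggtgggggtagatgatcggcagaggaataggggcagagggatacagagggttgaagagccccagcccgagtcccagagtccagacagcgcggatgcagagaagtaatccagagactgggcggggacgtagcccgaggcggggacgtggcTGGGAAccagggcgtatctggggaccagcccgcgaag
Sgms2, chr3:131490611-131490910, minus strand: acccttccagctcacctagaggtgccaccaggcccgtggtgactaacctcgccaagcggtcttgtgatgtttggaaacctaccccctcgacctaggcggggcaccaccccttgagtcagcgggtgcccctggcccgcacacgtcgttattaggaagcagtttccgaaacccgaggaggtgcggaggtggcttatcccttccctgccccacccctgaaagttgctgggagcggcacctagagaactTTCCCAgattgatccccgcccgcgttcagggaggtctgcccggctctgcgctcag
Sgms2, chr3:131488993-131489292, minus strand: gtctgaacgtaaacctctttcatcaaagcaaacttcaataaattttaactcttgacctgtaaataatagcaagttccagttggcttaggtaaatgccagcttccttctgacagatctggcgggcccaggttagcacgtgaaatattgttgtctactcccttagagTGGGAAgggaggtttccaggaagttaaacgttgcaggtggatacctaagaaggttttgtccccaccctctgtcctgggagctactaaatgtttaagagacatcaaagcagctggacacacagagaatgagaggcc
Counted from the 5′ end of the window, the motif began at base 264 in S1pr3, 13 bases after the start of the transcript, at base 246 in the first Sgms2 window, 5 bases before the start, and at base 166 in the second, 85 bases before it. A match is a description of these letters only, and the share over all promoters shows how often it occurs.

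The deposited values are model-based intensities on a linear scale, for which 50 served as the lowest group mean of a probe set to be tested. At that limit the 10 genes fell into 3 levels. Sgms1, Sgpl1, S1pr2, Sgpp1 and Sphk2 were at 50 or more on all 16 arrays with their strongest probe set, S1pr3 on 9 arrays and Sgms2 on 11 arrays, whereas Sphk1 reached 50 on 8 arrays and never exceeded 67.2, S1pr1 reached it on 2 arrays and peaked at 53.1, and S1pr5 stayed between 2.52 and 20.3. S1pr5 could therefore not be tested anywhere. Of the 22 probe sets, 18 entered the tests among mesodermal arrays and 19 those over all arrays. Of these 18, 3 passed only through the cells with CHX and OHT: the weaker S1pr3 probe set 1437173_at, S1pr1 and the weaker Sphk2 probe set 1426230_at. Intensities of different probe sets are not on 1 scale, and genes are compared below only with themselves.

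Across the series, array medians lay between 42.0 and 46.9. The check genes of Notch activity Hes5, Nrarp and Hey1 were called higher after OHT in NERT mesoderm, whether CHX was absent or present, and in NERT ESC, and none of the 3 was called in control cells. The early mesoderm genes Mixl1, Evx1, Eomes and Fgf8 were higher in mesodermal cells than in ESC in both lines. Kdr, which is summed with these genes below, differed less, with 253 in uninduced NERT mesoderm and 215 in uninduced NERT ESC. The summed intensity of 8 markers of endothelium and blood was 344 to 421 on the ESC arrays and 239 to 325 on the mesodermal arrays. Of these, Tie1, Cd34 and Cdh5 stayed below 50 in every condition (up to 13.1, 24.8 and 39.5), whereas Pecam1 reached 113, Gata1 86.3, Tek 79.2 and Tal1 75.2. The p-values below come from limma, adjusted over all probe sets tested, and reflect no more than how far replicate arrays lay apart, which can be technical since nothing says that replicates came from separate cultures. These are cell populations measured in bulk, so that fewer cells of a type and less RNA per cell cannot be told apart.

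S1pr3 was at its highest in mesodermal cells with active Notch1 and no protein synthesis. Its main probe set 1438658_a_at read 740.4 and 449 in NERT mesodermal cells with CHX and OHT, and 119 and 95.5 with CHX alone. In NERT mesodermal cells with OHT it read 62.3 and 70.3, and without OHT 40.8 and 55.6. Both arrays with CHX and OHT lay far above all 14 others, and the 2 arrays differed from each other by more than any other pair of replicates of this gene. NERT ESC with OHT followed, with 176 in ESCe and 171 in ESCm, against 22.8 and 19.6 without OHT. Control cells lay near the uninduced ESC, with 17.3 (+OHT) and 25.2 (−OHT) in ESCm, and 31.2 (+OHT) and 19.7 (−OHT) in mesodermal cells. By condition means the order was therefore CHX with OHT (595 ± 206, SD, n = 2), the ESC with OHT, which lay close together on single arrays, CHX alone (107 ± 16.9), OHT alone (66.3 ± 5.61) and untreated NERT mesoderm (48.2 ± 10.4), with the last pair not different beyond their spread and the uninduced ESC and the control cells below.

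Sgms2 was high in every NERT population that had received OHT. Its probe set 1428663_at read 289.8 in ESCe and 269.9 in ESCm with OHT, against 51.6 and 33.0 without. In NERT mesodermal cells it read 183 and 257 with OHT, against 64.7 and 77.1 without. With CHX present it read 289 and 278 with OHT, against 132 and 109.6 without. No array of OHT-treated NERT cells overlapped with any other array. In control cells the values were 19.0 (+OHT) and 22.9 (−OHT) in ESCm, and 36.8 (+OHT) and 31.9 (−OHT) in mesodermal cells. From the top the condition means were 289.8 and 269.9 in the ESC with OHT and 283 ± 7.62 with CHX and OHT, which lay within the spread of replicates, then 220.2 ± 52.7 with OHT alone, 121 ± 16.2 with CHX alone and 70.9 ± 8.72 in untreated NERT mesoderm (SD, n = 2).

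**Figure D1:**
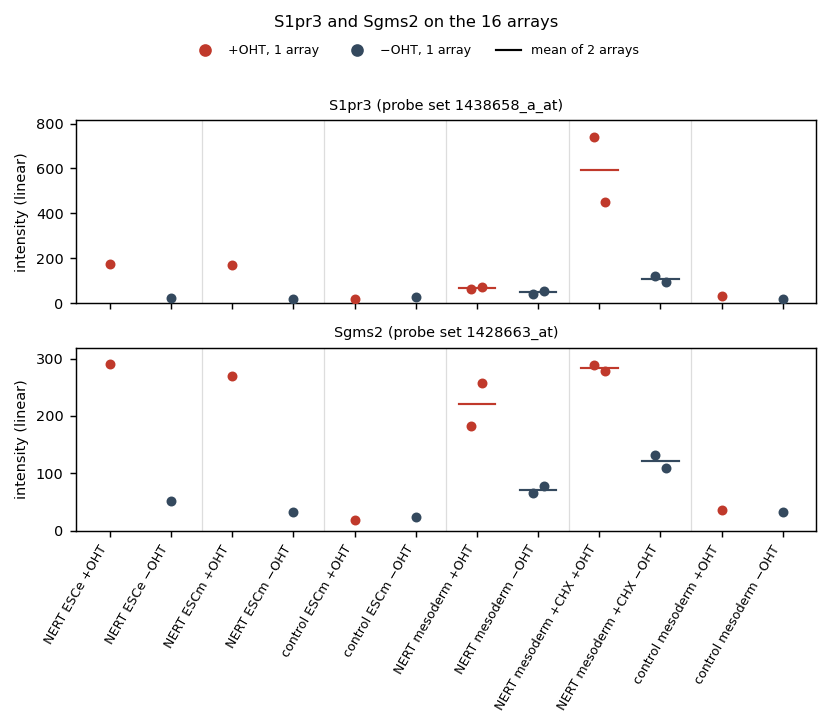
Intensity of the main probe sets of S1pr3 and Sgms2 on each of the 16 arrays (linear axis from 0), by condition along the horizontal axis, with a line at the mean where a condition has 2 arrays. S1pr3 peaked at 740.4 and 449 in NERT mesoderm with CHX and OHT but read 62.3 and 70.3 with OHT alone, whereas Sgms2 stood at 183 or more on all OHT-treated NERT arrays.

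In ESC, averaged over both media, S1pr3 was at 174 with OHT and 21.2 without, at least 6.95-fold higher when the lower value is set to 25, and Sgms2 was at 279.8 with OHT and 42.3 without, 6.62-fold higher. On the means over both media, both were at least 2-fold higher with a difference over 50, as the study's methods ask beside detection calls, which were not used here. Of all probe sets 0.315% passed these limits in this direction, and none of the other 20 probe sets did. Both also counted among the 0.538% of probe sets that limma called here (0.507% of all were called higher), from which nothing is read since these arrays put the genes forward. The other members gave smaller differences. Sgpl1 was at 476 with OHT and 320.5 without, S1pr2 at 454 with OHT and 625 without, Sgms1 at 414 with OHT and 351 without, and Sgpp1 at 97.4 with OHT and 77.8 without. Sphk2 hardly moved, with 156 with OHT and 155 without.

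In NERT mesodermal cells without CHX, Sgms2 rose with OHT and S1pr3 was not called. Sgms2 was 3.11-fold higher (220.2 ± 52.7 with OHT and 70.9 ± 8.72 without, n = 2 each), a log2 change of 1.34 (SE 0.19, limma adjusted p = 0.00913). Its weak second probe set 1429029_at, which never exceeded 70.3, was not called. The main Sgms2 probe set was the only 1 of the 18 called, where 0.893% of the 23971 tested were called and 0.613% were called higher. The call rested on the full set of arrays: without replicate 1 or 2 of the untreated cells or replicate 2 of the OHT-treated cells the limma adjusted p was 0.125, 0.0521 and 0.0745, with log2 changes of 1.12 to 1.43. S1pr3 was at 66.3 ± 5.61 with OHT and 48.2 ± 10.4 without (log2 0.33, SE 0.23, limma adjusted p = 0.941).

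With CHX present, both genes rose with OHT. S1pr3 was 5.54-fold higher (595 ± 206 with CHX and OHT and 107 ± 16.9 with CHX alone, n = 2 each), a log2 change of 2.19 (SE 0.23, limma adjusted p = 0.00112), and it passed the test in all 14 alternative fits. Its weaker probe set 1437173_at read 66.4 and 75.3 with CHX and OHT, against 27.2 and 25.8 with CHX alone, and is given as a description because it entered the test only through the cells with CHX and OHT. Sgms2 was 2.34-fold higher (283 ± 7.62 with CHX and OHT and 121 ± 16.2 with CHX alone), a log2 change of 1.08 (SE 0.19, limma adjusted p = 0.035), a call that held in 8 of 14 alternatives. It was lost without either replicate of the cells with CHX alone (limma adjusted p = 0.162 and 0.274), without replicate 1 of the cells with CHX and OHT (0.163), without either replicate of the untreated cells (0.0638 and 0.0641) and with no filter (0.0835). With that weaker S1pr3 probe set limma called 3 of 18 higher, where 0.617% of all probe sets tested were called and 0.567% were called higher, and nothing is read from a count that includes it.

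Whether the response to OHT itself differed with CHX was tested as an interaction. The log2 response of S1pr3 was 2.19 with CHX and 0.33 without, a difference of 1.87 (SE 0.33, limma adjusted p = 0.155), which was not called. Without replicate 2 of the cells with CHX and OHT it was 2.21 and passed (limma adjusted p = 0.0358). For Sgms2 the responses were 1.08 with CHX and 1.34 without, a difference of -0.26 (SE 0.27, limma adjusted p = 0.998). None of the 18 probe sets was called, while 0.025% of all probe sets were, and 3 of the 18 had an unadjusted p under 0.05, as had 1080 of 23971 probe sets.

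No other member was called with OHT in mesodermal cells. With CHX, Sgpp1 read 405 and 279.8 with OHT, against 216 and 202 without (log2 0.63, SE 0.20, limma adjusted p = 0.475), and Sgms1 read 1005 and 1188 with OHT, against 856 and 703 without (log2 0.48, SE 0.18, limma adjusted p = 0.656). Neither change passed the test. Sgpl1 stood at 303 ± 61.3 with OHT and 305 ± 73.6 without in the presence of CHX, and at 695 ± 110 with OHT and 705 ± 10.2 without in its absence. S1pr2 averaged 375 with CHX and OHT and 501 with CHX alone, and 254 with OHT alone and 289 in untreated cells, and its arrays overlapped in both (limma adjusted p = 0.932 and 1).

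**Figure D2:**
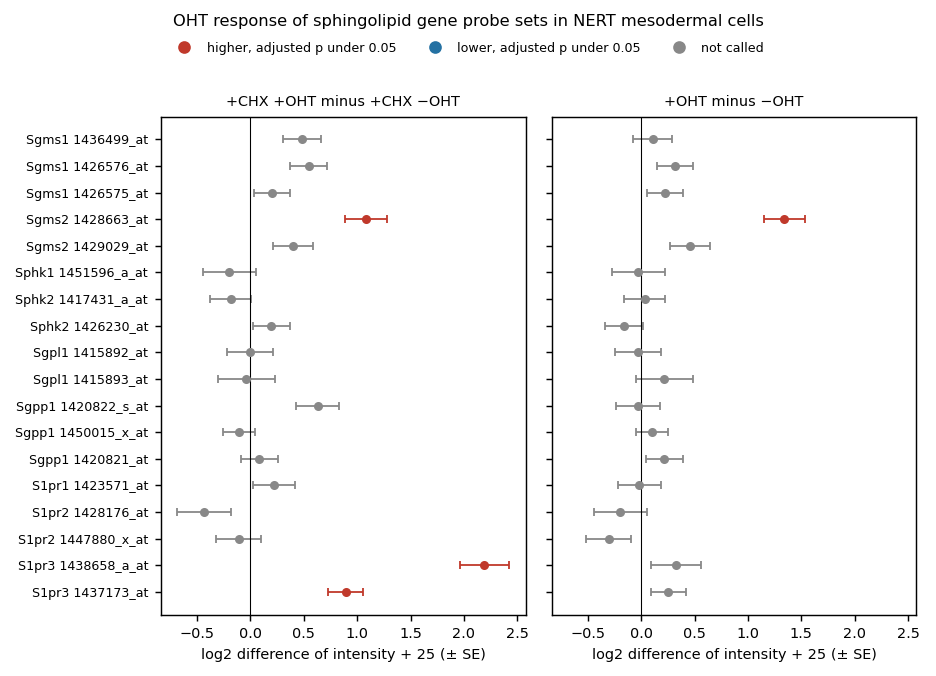
Log2 difference of intensity + 25 (± SE of limma, 2 arrays against 2) of the 18 tested probe sets in NERT mesodermal cells, OHT-treated minus untreated, with CHX in the left and without CHX in the right panel. With CHX the main probe sets of S1pr3 (2.19) and Sgms2 (1.08) were called higher, without CHX only that of Sgms2 (1.34), and the weaker S1pr3 probe set (0.89 with CHX), which entered the test only through the cells with CHX and OHT, lost its call in 9 of 14 alternatives.

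Markers of other cell types were read beside these changes. The summed intensity of 5 neuroectoderm genes was 710 to 914 in NERT mesoderm with OHT and 284 to 386 without, which was Nes alone (722 with OHT and 220.1 without, limma adjusted p = 0.0889), since Tubb3, Pax6, Zic1 and Sox1 averaged 3.35 to 47.3 with OHT and 17.1 to 52.9 without. The sums were 808 to 1422 with CHX and OHT and 759 to 792 with CHX alone, and 947 to 987 in ESC with OHT and 663 to 685 without. The summed intensity of 6 endoderm genes was 137 to 203 with OHT and 272 to 325 without, and 456 to 608 with CHX and OHT and 424 to 512 with CHX alone. That of 5 early mesoderm genes was 2688 to 2861 with OHT and 2740 to 3711 without. None of these genes was called in the mesodermal comparisons, and their part in the changes of Sgms2 and S1pr3 was not tested.

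In control cells no member was called with OHT. Averaged over ESC and mesodermal cells, S1pr3 was at 24.3 with OHT and 22.5 without (log2 0.04, SE 0.22), and Sgms2 at 27.9 with OHT and 27.4 without (log2 0.00, SE 0.17). None of the 19 probe sets tested was called by limma or had an unadjusted p under 0.05, and of all 25847 probe sets 0% were called and 308 had an unadjusted p under 0.05. Set directly against the control line, the log2 response of Sgms2 in NERT mesoderm was larger by 1.22 (SE 0.33), which did not pass (limma adjusted p = 0.717). That test called 0.0619% of all probe sets and none of the 19, of which 1 had an unadjusted p under 0.05, and it compared 4 NERT arrays with 2 control arrays.

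CHX alone was accompanied by changes of the S1P lyase and of an S1P receptor. The lyase Sgpl1 fell in NERT mesodermal cells, with 253 and 357 with CHX alone, against 712 and 697 in untreated cells, a log2 change of -1.16 (SE 0.22, limma adjusted p = 0.00255). Its second probe set 1415893_at fell further, with 60.4 and 87.2 with CHX alone, against 221 and 303 in untreated cells (-1.54, SE 0.27, limma adjusted p = 0.00177). The receptor S1pr2 rose, with 485 and 517 with CHX alone, against 269.7 and 309 in untreated cells (log2 0.75, SE 0.25, limma adjusted p = 0.0418), and on its second probe set 1447880_x_at it read 507 and 537 with CHX alone, against 216 and 259.7 in untreated cells (1.06, SE 0.21, limma adjusted p = 0.00371). The suffix x marks probe sets whose probes may also match other sequences. All 4 of these probe sets were called. The call of the first S1pr2 probe set was lost without any 1 of the 4 arrays (limma adjusted p = 0.1 to 0.197), whereas the other 3 held in all 14 alternatives.

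S1pr3 and Sgms2 were also called with CHX in the absence of OHT. S1pr3 was 2.23-fold higher (107 ± 16.9 with CHX alone and 48.2 ± 10.4 in untreated cells, log2 0.86, SE 0.23, limma adjusted p = 0.0169), and Sgms2 1.71-fold (121 ± 16.2 with CHX alone and 70.9 ± 8.72 in untreated cells, log2 0.60, SE 0.19, limma adjusted p = 0.0346). The S1pr3 call was lost without replicate 1 of either group (limma adjusted p = 0.126 and 0.128), and the Sgms2 call without any 1 of the 4 arrays (0.0628 to 0.211). Sgpp1 was at 209 ± 10.0 with CHX alone and 141 ± 25.9 in untreated cells, which was not called (log2 0.50, SE 0.20, limma adjusted p = 0.0816). In all, 4 probe sets rose and 2 fell of 18, but CHX moved the transcriptome widely, with 32.8% of all probe sets called, 21.1% higher and 11.7% lower, so that these counts are close to the background.

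When OHT was present, CHX gave the largest log2 change of a member in any of the comparisons. S1pr3 was 8.97-fold higher (595 ± 206 with CHX and OHT and 66.3 ± 5.61 with OHT alone), a log2 change of 2.72 (SE 0.23, limma adjusted p = 2.1e-05). Sgpp1 rose 2.50-fold, with 405 and 279.8 with CHX and OHT, against 131 and 142 with OHT alone (log2 1.16, SE 0.20, limma adjusted p = 0.00133), while its 2 weaker probe sets were not called. Sgpl1 fell again, to 303 ± 61.3 with CHX and OHT, against 695 ± 110 with OHT alone (-1.14, SE 0.22, limma adjusted p = 0.00206). Sgms2 was at 283 with CHX and OHT and 220.2 with OHT alone (log2 0.35, SE 0.19, limma adjusted p = 0.177). The S1pr2 probe sets parted, since 1447880_x_at rose (490 ± 133 with CHX and OHT and 188 ± 26.6 with OHT alone, log2 1.25, limma adjusted p = 0.00104) whereas 1428176_at did not pass (375 ± 130 with CHX and OHT and 254 ± 72.6 with OHT alone, log2 0.51, limma adjusted p = 0.129). The main Sphk2 probe set 1417431_a_at was lower (115 with CHX and OHT and 180 with OHT alone, log2 -0.54, limma adjusted p = 0.0477), a call lost in 8 of 14 alternatives, among them 6 of the 8 that left out an array, with an adjusted p of up to 0.27 without replicate 2 of the cells with OHT alone. Its weak probe set 1426230_at read 50.7 with CHX and OHT and 28.1 with OHT alone, and entered the test only through the cells with CHX and OHT. With this probe set and the weaker one of S1pr3, which entered likewise, 5 of the 18 were called higher and 3 lower, where 40.5% of all probe sets were called, 26.5% higher and 14% lower. By at least 2-fold and a difference over 50 it was 5 of the 22 probe sets, where 9.85% of all 45037 met these criteria.

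**Figure D3:**
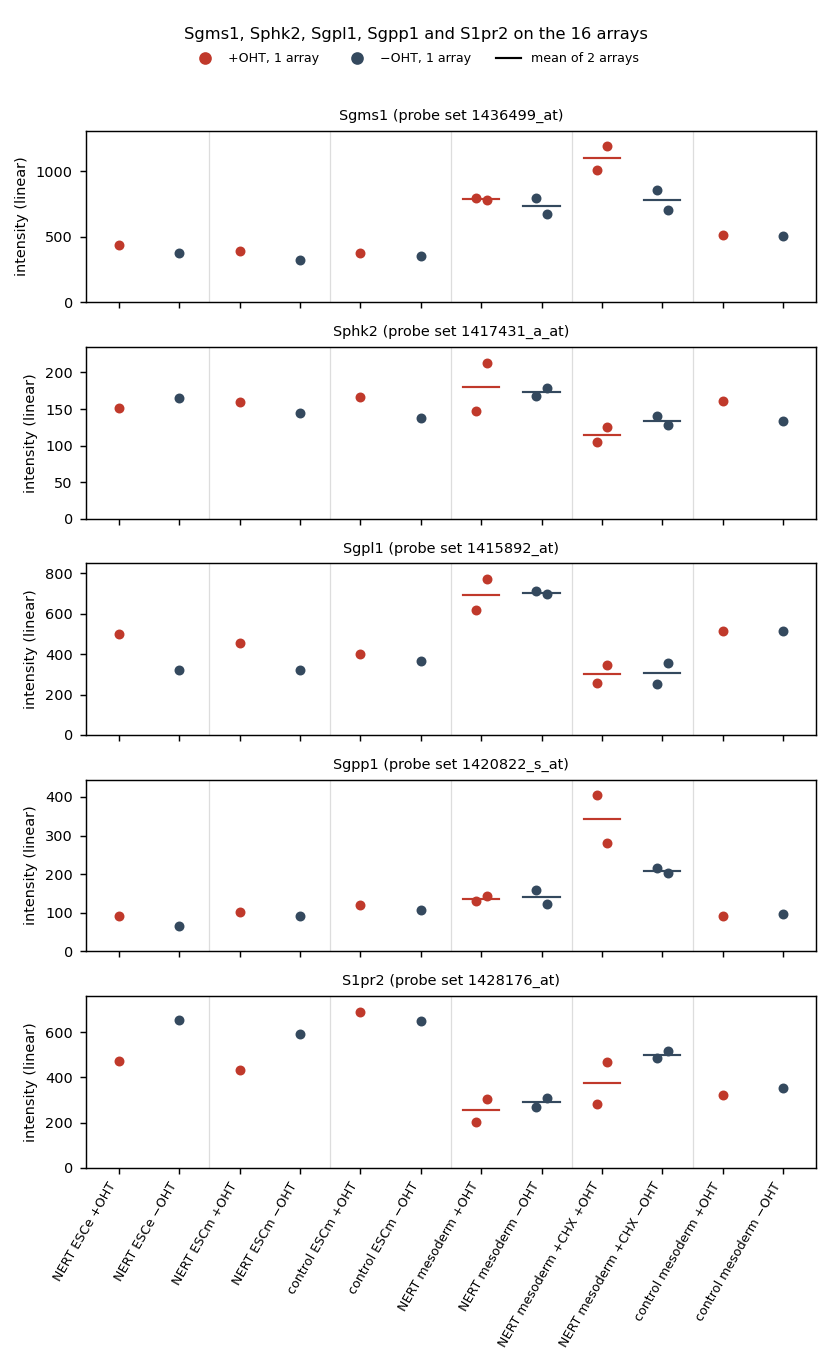
Intensity of the main probe sets of Sgms1, Sphk2, Sgpl1, Sgpp1 and S1pr2 on each of the 16 arrays (linear axes from 0), by condition along the horizontal axis, with a line at the mean where a condition has 2 arrays. Sgpl1 stood at 253 to 357 on the 4 arrays with CHX and at 617 to 773 on the other 4 NERT mesoderm arrays, and S1pr2 was highest, at 693, in control ESC with OHT.

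**Figure D4:**
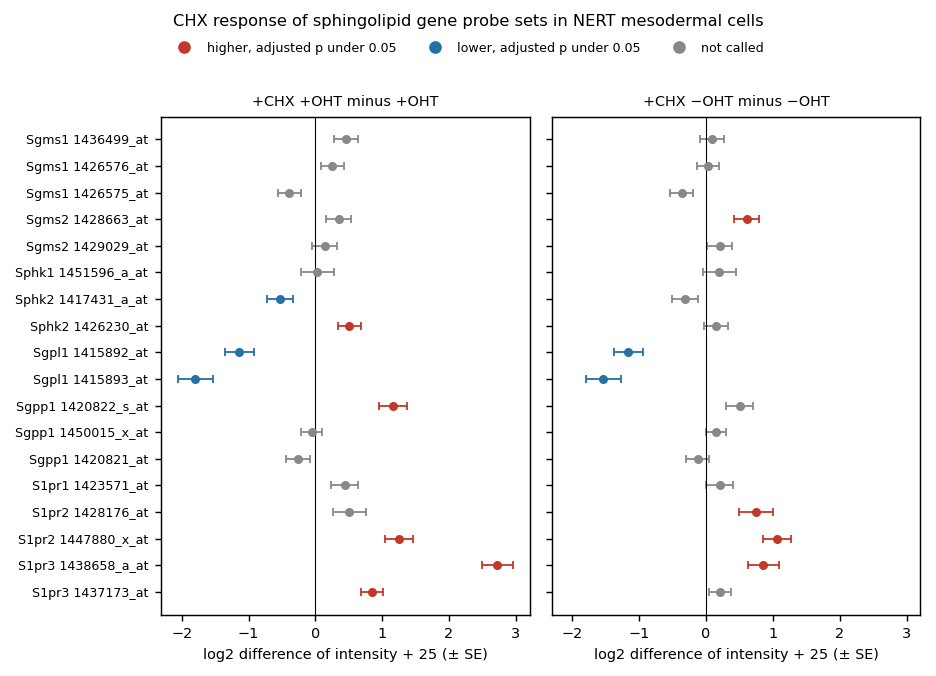
Log2 difference of intensity + 25 (± SE of limma, 2 arrays against 2) of the 18 tested probe sets in NERT mesodermal cells, CHX-treated minus untreated, with OHT in the left and without OHT in the right panel. Both Sgpl1 probe sets were called lower in both panels, and S1pr3 rose by 2.72 with OHT and 0.86 without.

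The populations changed under CHX too. The summed intensity of 5 early mesoderm genes was 1018 to 1129 with CHX alone and 2740 to 3711 in untreated cells, with 4 of 5 genes called lower. That of 5 neuroectoderm genes was 759 to 792 with CHX alone and 284 to 386 in untreated cells. Of these, Pax6, Zic1 and Sox1 were called higher, but they entered the test only through the cells with CHX, so nothing is read from their calls. Of all probe sets 21.1% were called higher and 11.7% lower. For 6 genes of undifferentiated ESC the sums were 6024 to 7080 with CHX alone and 5330 to 5524 in untreated cells, with 2 of 6 called higher. Pou5f1 alone of the 6 went the other way, with 1110 with CHX alone and 2195 in untreated cells, which was not called (limma adjusted p = 0.0591). The part of these markers in the changes of Sgpl1, S1pr2 and S1pr3 was not tested. The CHX comparisons share their arrays with the OHT comparisons, so that the values of a gene in both are not independent.

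Some of the 10 genes also differed between mesodermal cells and ESC, more of them in the NERT line than in the control line. In the uninduced NERT line, Sgms1 was 2.09-fold higher in mesodermal cells, with 796 and 673, against 379 in ESCe and 323 in ESCm (log2 1.01, SE 0.18, limma adjusted p = 0.002). Sgpl1 was 2.20-fold higher, with 712 and 697 in mesodermal cells, against 320.1 in ESCe and 320.8 in ESCm (1.08, SE 0.22, limma adjusted p = 0.00363). Sgpp1 was 1.81-fold higher, with 159 and 123 in mesodermal cells, against 65.3 and 90.3 in ESC (0.69, SE 0.20, limma adjusted p = 0.0242), a call lost without replicate 1 of the mesodermal cells (limma adjusted p = 0.199). S1pr2 ran the other way, with 269.7 and 309 in mesodermal cells, against 656 and 595 in ESC (-1.05, SE 0.25, limma adjusted p = 0.00927). The S1pr2 call was lost without replicate 1 of the mesodermal cells (log2 -0.96). S1pr3 (48.2 ± 10.4 in mesodermal cells and 21.2 in ESC, limma adjusted p = 0.0516) and Sgms2 (70.9 ± 8.72 in mesodermal cells and 42.3 in ESC, limma adjusted p = 0.0604) were higher on average without passing. In all 7 probe sets were called higher and 2 lower of 19. The 7 belong to 3 genes and the 2 to S1pr2. Of all probe sets 29.3% were called, 19.4% higher and 9.86% lower. By at least 2-fold and a difference over 50 it was 4 of the 22 probe sets, where 8% of all met these criteria.

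In the control line S1pr2 was the only member called. It read 323 (+OHT) and 355 (−OHT) in mesodermal cells, against 693 (+OHT) and 652 (−OHT) in ESC, a log2 difference of -0.94 (SE 0.25, limma adjusted p = 0.0313), and -1.07 on its second probe set (SE 0.21, limma adjusted p = 0.00749), the only 1 of the 22 probe sets to meet the 2-fold criteria here, as did 4.1% of all. The first call was lost without either replicate of the NERT cells with CHX alone, which enter through the spread (limma adjusted p = 0.0519 and 0.0518). Control mesodermal cells thus had 339 where ESC had 672. Both probe sets of S1pr2 were called lower in both lines, although 1447880_x_at lost its call in the NERT line without either untreated mesodermal replicate (limma adjusted p = 0.152 and 0.0516). Of all probe sets 5% were lower in the control line and 13.3% were called in all. Sgms1 was at 509 in mesodermal cells and 366 in ESC (0.45, SE 0.18, limma adjusted p = 0.138), Sgpl1 at 515 in mesodermal cells and 385 in ESC (0.40, SE 0.22, limma adjusted p = 0.271) and Sgpp1 at 94.3 in mesodermal cells and 114 in ESC (-0.22, SE 0.20, limma adjusted p = 0.541). Whether the lines differed in these changes was not tested.

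**Figure D5:**
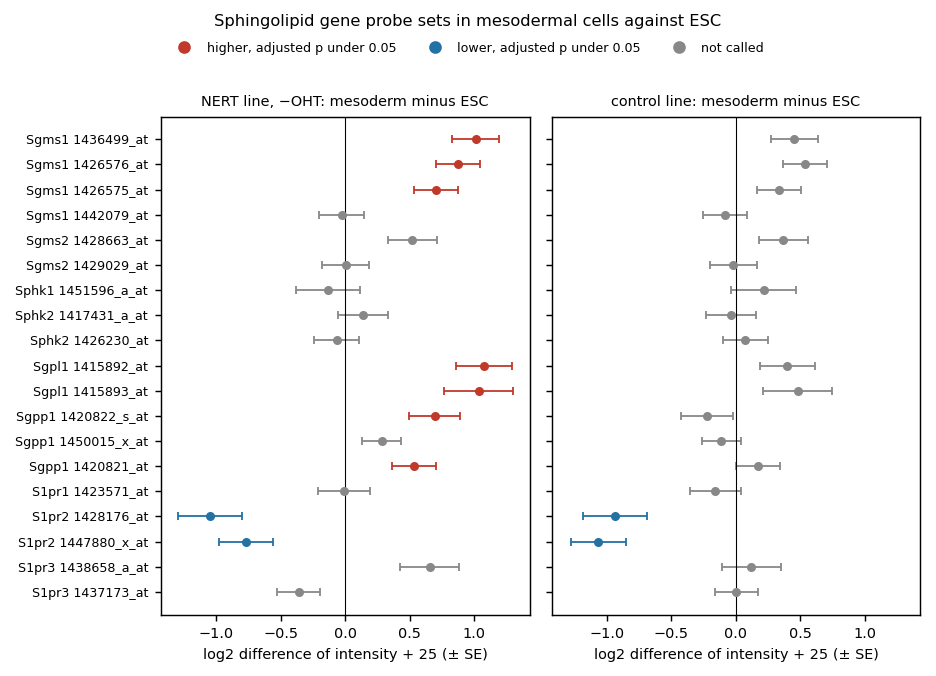
Log2 difference of intensity + 25 (± SE of limma) of the 19 tested probe sets, mesodermal cells minus ESC, in the uninduced NERT line (left, 2 arrays against 2) and in the control line (right, 2 arrays against 2). S1pr2 was called lower in both lines (-1.05 and -0.94 for its main probe set), and Sgms1 and Sgpl1 were called higher in the NERT line (1.01 and 1.08).

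The markers of the populations differed between the lines as well. The summed intensity of the early mesoderm genes was 2740 to 3711 in uninduced NERT mesoderm and 335 to 387 in uninduced NERT ESC, and 1219 to 1262 in control mesoderm and 310.2 to 362 in control ESC. That of the ESC genes was 5330 to 5524 in uninduced NERT mesoderm and 12201 to 12490 in uninduced NERT ESC, and 9793 to 9882 in control mesoderm and 12942 to 13153 in control ESC. Their part in the levels of Sgms1, Sgpl1 and S1pr2 was not tested. Directly between the lines, none of the 19 probe sets was called in uninduced mesoderm, where 1.28% of all probe sets were, and 3 of the 19 had an unadjusted p under 0.05, as had 3161 of 25847. Sgms2 was at 70.9 ± 8.72 in NERT and 31.9 in control mesoderm (log2 0.75, SE 0.23, limma adjusted p = 0.179), S1pr3 at 48.2 ± 10.4 in NERT and 19.7 in control mesoderm (0.70, SE 0.28, limma adjusted p = 0.325), and Sgms1 at 735 ± 87.5 in NERT and 503 in control mesoderm (0.52, SE 0.22, limma adjusted p = 0.375). Between the lines in ESCm and between ESCe and ESCm none of the 19 was called or had an unadjusted p under 0.05, where 0.0193% and 0% of all probe sets were called.

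No gene of the wider sphingolipid pathway was called with OHT in mesodermal cells. Tested were 10 genes of ceramide synthesis, 15 of ceramide and sphingomyelin turnover and 11 of S1P and lysophospholipid export, phosphatases and receptors. None of them was called in NERT mesoderm with OHT, either without or with CHX. Over all probe sets tested 0.893% were called without CHX and 0.617% with CHX, so that no call among so few genes is close to the background. The medians of the log2 changes without CHX were -0.13, -0.04 and -0.14, beside -0.05 over all 12188 genes, and with CHX -0.05, -0.13 and -0.02, beside 0.00. Of 12 genes for G proteins and their effectors, only Gnai1, a Gi subunit, was called, and only without CHX, lower at 541 with OHT and 1392 without (-1.32, SE 0.26, limma adjusted p = 0.0469).

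With CHX alone, for which 21.1% of all probe sets were called higher and 11.7% lower, some of these genes were called. Among the export and receptor genes 5 of 11 rose and 1 fell, at a median of 0.37 beside 0.11 over all genes. They included the lysophosphatidic acid receptors Lpar6 (4991 with CHX alone and 961 in untreated cells) and Lpar4 (1180 with CHX alone and 564 untreated) and the S1P exporter Spns2 (86.0 with CHX alone and 30.7 untreated, log2 0.99). The gene that fell was the phosphatase Plpp2 (405 with CHX alone and 863 untreated), whereas other lipid phosphatases were among the genes that rose. Of the turnover genes 4 of 15 rose, with Smpdl3b, an acid sphingomyelinase-like enzyme, at 261 with CHX alone and 86.8 in untreated cells, and Acer3, an alkaline ceramidase, at 243 with CHX alone and 146 untreated. Of the ceramide synthesis genes, the ceramide synthase Cers4 fell (178 with CHX alone and 386 in untreated cells) and Ormdl1, a regulator of serine palmitoyltransferase, rose (1092 with CHX alone and 715 untreated). Among the G protein genes 4 of 12 fell and 1 rose. Those that fell included the G12/13 effector Arhgef1 (133 with CHX alone and 261 untreated) and the Gi subunit Gnai2 (2138 with CHX alone and 3536 untreated). The gene that rose was another G12/13 effector.

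Several ceramide synthesis genes were higher in mesodermal cells than in ESC, where 19.4% of all probe sets were called higher and 9.86% lower in the NERT line, and 8.33% higher and 5% lower in the control line. In the uninduced NERT line 8 of 11 genes rose and none fell, at a median log2 change of 0.99 beside 0.10 over all 12763 genes, and in the control line 5 of 11 rose at a median of 0.37 beside 0.04. The 5 genes called in the control line were also called in the NERT line. They were 2 ceramide synthases, the desaturase Degs1, which makes ceramide from dihydroceramide, Kdsr, which acts early in the pathway, and the serine palmitoyltransferase subunit Sptlc3. Cers4 averaged 386 in NERT mesoderm and 103 in NERT ESC, and 266 in control mesoderm and 87.1 in control ESC. Cers2 averaged 1083 in NERT mesoderm and 437 in NERT ESC, and 916 in control mesoderm and 558 in control ESC. In the same 2 comparisons Degs1 averaged 4152 in NERT mesoderm and 1852 in NERT ESC, and 2907 in control mesoderm and 1568 in control ESC. All 5 genes were thus higher in mesodermal cells of both lines, Sptlc3 at a low level (49.2 in NERT mesoderm and 5.88 in NERT ESC, and 82.8 in control mesoderm and 4.59 in control ESC). Sptlc3 entered these tests only through control mesoderm, where it was highest. Its calls in both lines, which the counts above include, are therefore a description. Of the turnover genes 7 of 15 rose and 2 fell in the NERT line and 1 rose in the control line, the acid sphingomyelinase Smpd1 (255 in NERT mesoderm and 89.7 in NERT ESC, and 183 in control mesoderm and 81.2 in control ESC). Of the export and receptor genes 4 of 11 rose and 2 fell in the NERT line, and 3 rose and 1 fell in the control line. Lpar2 (276 in NERT mesoderm and 67.1 in NERT ESC) and Lpar4 (564 in NERT mesoderm and 313 in NERT ESC) rose, and the lipid phosphatase Plpp3 (304 in NERT mesoderm and 711 in NERT ESC) fell in the NERT line. G protein genes rose in 6 of 12 cases in the NERT line and in 1 case, Gnai1, in the control line.

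Over the 12 condition means, S1pr3 ran most like Pcdh8, a protocadherin of paraxial mesoderm (Pearson r = 0.966 of log2 intensity + 25), followed by Slc25a33, Clock, Dixdc1 and Tsnax (0.963 to 0.945), among 12763 genes. Sgms2 ran most like Lrig1, an inhibitor of growth factor receptors (r = 0.977), Ch25h, which makes 25-hydroxycholesterol (0.975), Myo10, Tmem51 and C2cd2l (0.967 to 0.963). The correlation between Sgms2 and Sgms1, the other sphingomyelin synthase, was 0.52, and that between S1pr3 and S1pr2 -0.29. These values rest on 12 points that share lines and normalization and include the ESC with OHT in which both genes were already known to be high, and describe likeness only.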

How the data were processed

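RNA of 16 cell samples was hybridised to Affymetrix Mouse Genome 430 2.0 arrays. The authors deposited dChip expression intensity values (model-based, linear), for which their invariant-set normalization took the OHT-treated control mesoderm array as baseline. They were taken as deposited, without the detection calls. The number of arrays limits the precision. Groups were read from the sample labels, and probe sets were named through the platform annotation (34945 of 45037 name 1 symbol) and the RefSeq gene table. Where 1 probe set stands for a gene, it is the one with the highest mean intensity.

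Log2(intensity + 25) entered two-sided limma fits (version 3.58.1, R 4.3.3, eBayes with an intensity trend). Probe sets needed a mean of 50 in some group, and Benjamini-Hochberg adjusted p-values over all such probe sets were called below 0.05. The pseudocount understates changes of weak genes. The 8 NERT mesoderm arrays (23971 probe sets, 4 residual degrees of freedom) gave the effects of OHT and CHX. All 16 arrays (25847 probe sets) gave the other comparisons, with 12 groups and 4 residual degrees of freedom, or, for OHT in ESC and in control cells, averaged over populations with 6. Single arrays were taken to vary like the replicated groups. The fits were tested on simulated data.

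Every probe set of the 10 genes was kept, and of each pathway list the up to 4 called genes with the largest changes in each comparison could be named. Genes counted as found if a probe set named them alone under the symbol used. That held for 14 of 17 genes of ceramide synthesis, 19 of 20 of turnover, 13 of 14 of export and receptors, and 12 of 12 G protein genes. Of the early mesoderm markers it held for 5 of 6, so that Tbxt (Brachyury) is not in their sums. The genes not found may still have probe sets under other names. The members, lists and tests were chosen with earlier results of these data known, and neither the p-values nor the alternative fits correct for this choice. Alternatives were the pseudocount, no filter, quantile normalization, the replicate number as a block, all 16 arrays in the fit, fold criteria, and leaving out each NERT mesoderm replicate. Other tables and the figures came from Python 3.11.15 (numpy 2.4.6, pandas 2.3.3, matplotlib 3.10.9).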

Additional observations from a re-analysis of the deposited data

How the results depend on the processing

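Counts of called probe sets of the 10 genes changed mostly when a replicate was left out. For OHT in NERT mesoderm without CHX 1 was called and 0 to 1 without a replicate. With CHX it was 3, 1 to 3 without a replicate and 1 with no filter on low values. For the difference of the OHT response with CHX it was 0, and 0 to 1 without a replicate. For CHX without OHT it was 6, and 3 to 7 without a replicate. For CHX with OHT it was 8, 6 to 8 without a replicate, and 5 by at least 2-fold and a difference over 50. For mesodermal cells against ESC it was 2 in the control line, 1 to 3 without a replicate, 1 with no filter and 1 by the fold criteria, and 9 in the uninduced NERT line, 3 to 10 without a replicate and 4 by the fold criteria. The counts of the other 6 comparisons did not change. The causes were not tested, except that fewer arrays or more probe sets enter by construction. Over all combinations of probe set, comparison and alternative, 2965 kept their side of the threshold, 63 lost and 17 gained a call, and no called value changed direction. Quantile normalization moved the median log2 change over all probe sets from 0.1 to -0.042 for CHX with OHT, and turned 6342 higher and 3360 lower calls into 5149 and 5174. For CHX without OHT it turned 5059 and 2812 into 4296 and 4236. The labels give the NERT mesoderm replicates a number and no shared culture or day. With the replicate number as a block 215 probe sets were higher and 124 lower with OHT without CHX, where 147 and 67 were called without the block, 12 and 7 instead of 3 and 3 for the difference with CHX, and the block moved no count of the 10 genes by more than 1.5 times. The correlations of replicate differences between groups were 0.011 to 0.493 and not all over 0.1, so the samples were not treated as paired.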
